A study of Homo sapiens with 6 samples.

Results

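Human chromosomes 4, 13, 18 and 21 were described as carriers of H3K79 methylation peaks in 293T cells. Their members were all peaks that the deposited lists place on these assembled chromosomes (hg19), and they numbered 2159 of the 28345 peaks in the 6 lists, or 7.62%. 293T cells derive from human embryonic kidney and express the large T antigen of SV40. One line stably expressed a short hairpin RNA against KDM2B (shKDM2B, the knockdown), and the other stably expressed a control hairpin (shCTL, the control). Each line gave 1 library for H3K79me2, 1 for H3K79me3 and 1 input without antibody, all from chromatin immunoprecipitation followed by sequencing (ChIP-seq). The labels do not say whether a line was 1 clone. The members were 450 peaks in knockdown and 529 in control H3K79me2, 541 in knockdown and 439 in control H3K79me3, and 102 in knockdown and 98 in control input. With 1 library per group no difference between the lines has a replicate check, and no test was possible. The 95% intervals given are exact, cover counting error only, and treat peaks or tags as independent.

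Methylation of lysine 79 of histone H3 is laid down by DOT1L on the globular part of the histone. Both the dimethyl and the trimethyl form are known for lying over the first part of transcribed genes, so that their peaks follow the distribution of active genes along a chromosome. KDM2B is a Jumonji-domain protein that binds unmethylated CpG islands, and the study examined it as a demethylase of this lysine. Chromosomes 13 and 21 are acrocentric, with short arms made largely of repeated sequence.

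The label of gene-poor chromosomes held for 3 of the 4. By protein-coding genes in the RefSeq table (GRCh38.p14) over the span with peaks in hg19, chromosome 18 had 3.47 genes per Mb, chromosome 13 had 3.55 and chromosome 4 had 4.03, and these were the 3 lowest values of the 22 autosomes. Chromosome 21 had 6.26 genes per Mb and ranked 12 of 22 from the lowest. The 4 chromosomes together held 1617 such genes (4.02 per Mb), against 17509 (7.34 per Mb) on the other 18 autosomes.

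The input peaks bear on several values below. One bin of chromosome 4, from 49 to 50 Mb, held 29 of the 102 knockdown and 28 of the 98 control input peaks of the 4 chromosomes. Peaks in that bin took 55.1% of the knockdown and 54.4% of the control input tags listed on them. In the ChIP lists the same bin held 6 knockdown and 13 control H3K79me2 peaks, and 12 knockdown and 5 control H3K79me3 peaks. The input density ratios and the peak-number ratios between the lines are given with and without it. Other values include it unless stated. Of the members, 4.44% of knockdown and 4.91% of control H3K79me2 peaks overlapped an input peak of either line, and 5.55% of knockdown and 6.15% of control H3K79me3 peaks did.

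Peaks were about as sparse in each ChIP list. The 4 chromosomes carried 1.12 peaks per Mb (95% interval 1.02 to 1.23) of knockdown H3K79me2, against 2.30 (2.24 to 2.37) on the other autosomes, a ratio of 0.486 (0.440 to 0.535). In control H3K79me2 they carried 1.32 peaks per Mb, against 2.53, a ratio of 0.520 (0.475 to 0.569). In knockdown H3K79me3 they carried 1.34, against 2.62, a ratio of 0.514 (0.470 to 0.561). In control H3K79me3 they carried 1.09, against 2.07, a ratio of 0.526 (0.476 to 0.580). The 4 intervals of the ratio overlap one another. The lists share many regions and are not independent counts, and a difference in the deficit between them was not tested. The input lists stood nearer to an even spread, with a ratio of 0.895 (0.719 to 1.10) in knockdown and 0.785 (0.630 to 0.971) in control. Without the bin at 49 to 50 Mb these were 0.640 in knockdown and 0.561 in control. Only the 4 chromosomes lost a bin there. The other autosomes kept all of their bins with 5 or more input peaks, 24 in knockdown and 23 in control. A lower ratio thus follows from the choice, and it does not show that input was as sparse as ChIP.

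The 4 chromosomes differed among themselves. Chromosome 4 had 0.990 and 1.19 H3K79me2 peaks per Mb in knockdown and control, and 1.24 and 0.969 H3K79me3 peaks per Mb. Chromosome 13 had 1.07 and 1.18 for H3K79me2, and 1.39 and 1.13 for H3K79me3. Chromosome 18 had 1.18 and 1.39 for H3K79me2, and 1.23 and 1.04 for H3K79me3. These 3 chromosomes took the 3 lowest ranks of 22 in each of the 4 ChIP lists, and their intervals overlapped within every list. Chromosome 21 stood apart from them, with 1.75 and 2.12 H3K79me2 peaks per Mb and 2.02 and 1.70 H3K79me3 peaks per Mb, and ranked between 9 and 11 of 22.

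**Figure D1:**
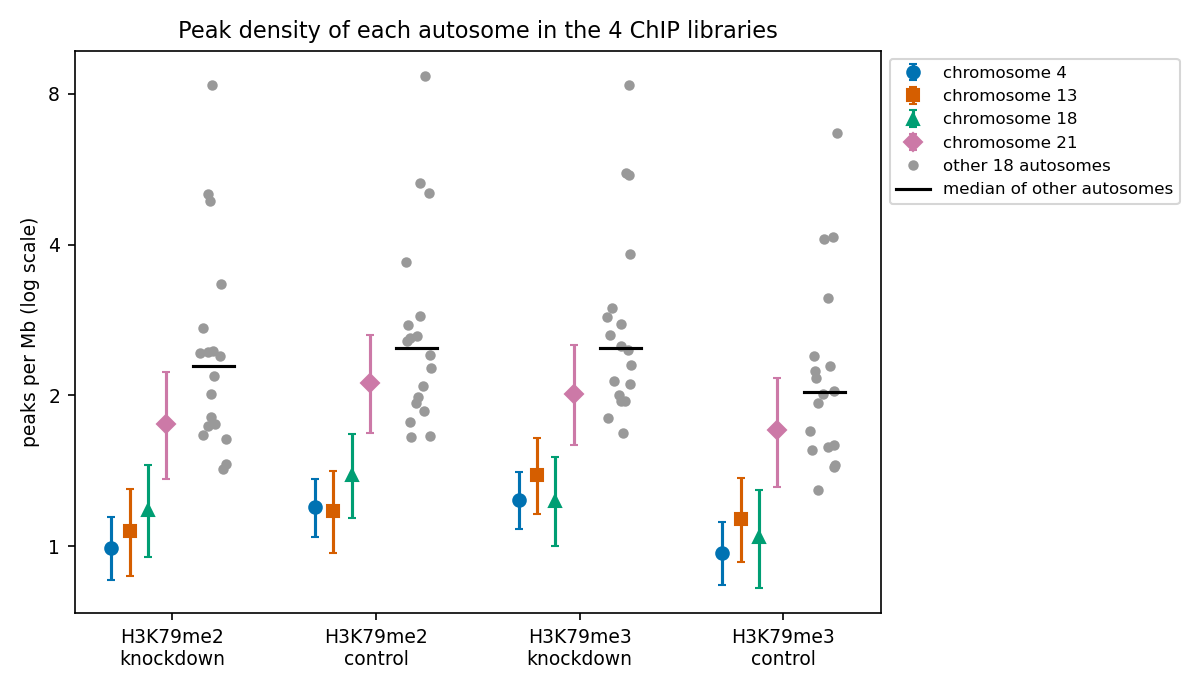
Peaks per Mb of span (log scale) for each autosome in the knockdown and control lists of both marks; coloured points are chromosomes 4, 13, 18 and 21 with exact Poisson 95% intervals, grey points are the other 18 autosomes and the bar is their median. Chromosomes 4, 13 and 18 lie under every other autosome in all 4 lists, and chromosome 21 lies among the others.

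Set against genes and not against length, the deficit was small. The 4 ChIP lists were merged into regions, each a stretch covered by 1 or more overlapping peaks, which gave 694 on the 4 chromosomes and 7860 on the other autosomes. That was 42.9 regions per 100 protein-coding genes on the 4 chromosomes, against 44.9 on the others, a ratio of 0.956 (0.883 to 1.03). Chromosome 18 had 48.5, chromosome 13 had 46.2, chromosome 21 had 43.1 and chromosome 4 had 39.5. Chromosome 18, lowest in genes per Mb, ranked 17 of 22 in regions per gene, and chromosome 4 ranked 2. By list, the 4 chromosomes had 27.8 knockdown and 32.7 control H3K79me2 peaks per 100 genes, against 31.4 and 34.4 on the other autosomes. For H3K79me3 they had 33.5 knockdown and 27.1 control peaks per 100 genes, against 35.7 and 28.3. The interval of the ratio lay under 1 for knockdown H3K79me2 only (0.886, 0.803 to 0.976). Peaks were counted against all genes of a chromosome; they were not assigned to genes, because no annotation of the build of the files was used here.

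The distance from one peak to the next on the 4 chromosomes was more than double that elsewhere at the median. For knockdown H3K79me2 the median gap was 311 kb (243 to 374), against 121 kb on the other autosomes, and for control H3K79me2 it was 241 kb (183 to 312), against 112 kb. For knockdown H3K79me3 it was 228 kb (185 to 293), against 106 kb, and for control H3K79me3 it was 332 kb (269 to 427), against 138 kb. Chromosome 21 had the shortest median gaps of the 4, between 119 kb in knockdown H3K79me3 and 191 kb in knockdown H3K79me2. Outside knockdown H3K79me2 they were near those of the other autosomes, with 125 kb in control H3K79me2 and 134 kb in control H3K79me3. Gaps over 1 Mb covered 77.2% of the knockdown and 74.9% of the control H3K79me2 span of the 4 chromosomes, against 61.1% and 58.8% of the span of the others. For H3K79me3 they covered 73.2% of the knockdown and 78.4% of the control span, against 58.0% and 63.5%. Gaps under 10 kb were scarcer in all 4 ChIP lists. For H3K79me2 they made up 4.26% of knockdown and 7.62% of control gaps on the 4 chromosomes, against 7.79% and 10.1% on the others. For H3K79me3 they made up 8.57% of knockdown and 4.37% of control gaps, against 10.9% and 7.75%.

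**Figure D2:**
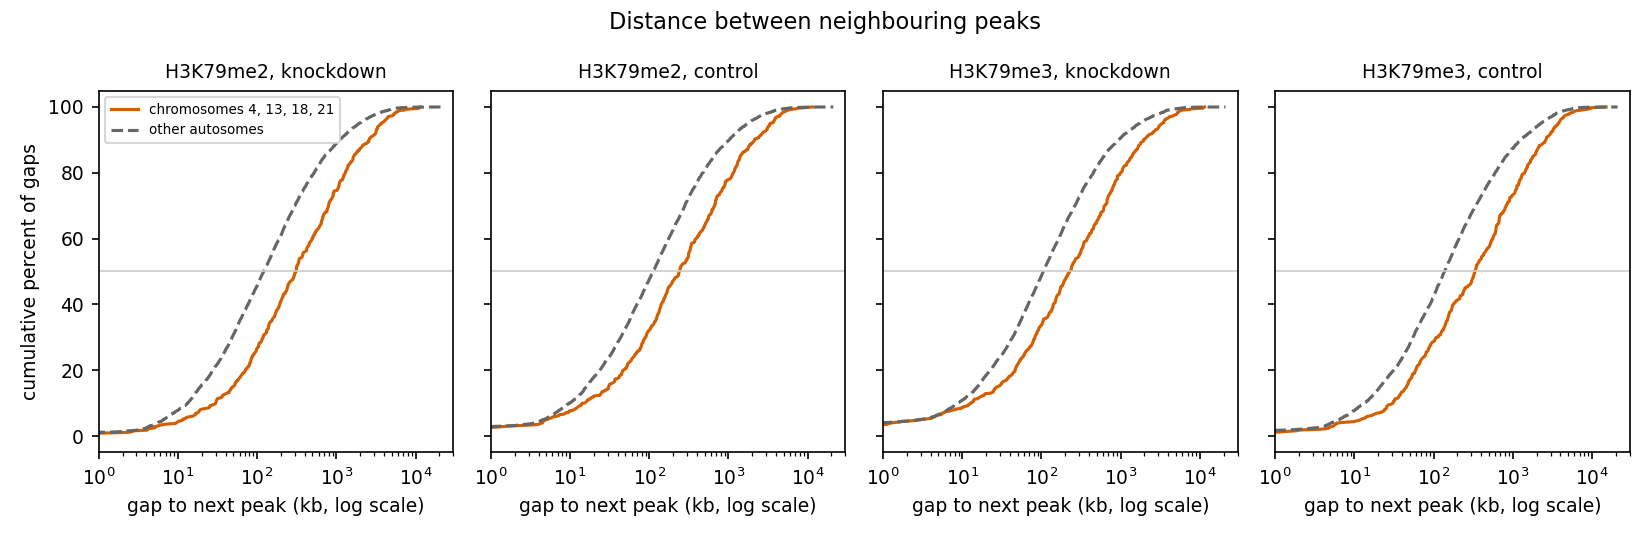
Cumulative percent of gaps between neighbouring peaks by gap length (kb, log scale), for chromosomes 4, 13, 18 and 21 (solid) and the other autosomes (dashed) in each ChIP list. The solid curve lies to the right at the median in all 4 lists, at 228 to 332 kb against 106 to 138 kb.

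In 1 Mb bins, close to 1 bin in every 2 of the 4 chromosomes had no peak in a given list. Of 405 bins, 199 (49.1%, interval 44.2 to 54.1) were empty of knockdown H3K79me2 and 190 (46.9%) of control H3K79me2, against 36.3% and 33.9% of the 2398 bins of the other autosomes. For H3K79me3, 190 bins (46.9%) were empty in knockdown and 201 (49.6%) in control, against 34.0% and 37.9%. Dense bins were scarcer: 20 bins held 5 or more knockdown H3K79me2 peaks (4.94%) and 25 held 5 or more control ones (6.17%), against 16.1% and 18.4% of bins elsewhere. For H3K79me3, 30 bins in knockdown (7.41%) and 18 in control (4.44%) held 5 or more, against 19.5% and 14.6%. A bin with 10 or more peaks occurred 2 times in control H3K79me2 and 2 times in knockdown H3K79me3, in each list on chromosomes 4 and 21, and in neither of the other ChIP lists. The chromosome 4 bin is the one at 49 to 50 Mb.

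**Figure D3:**
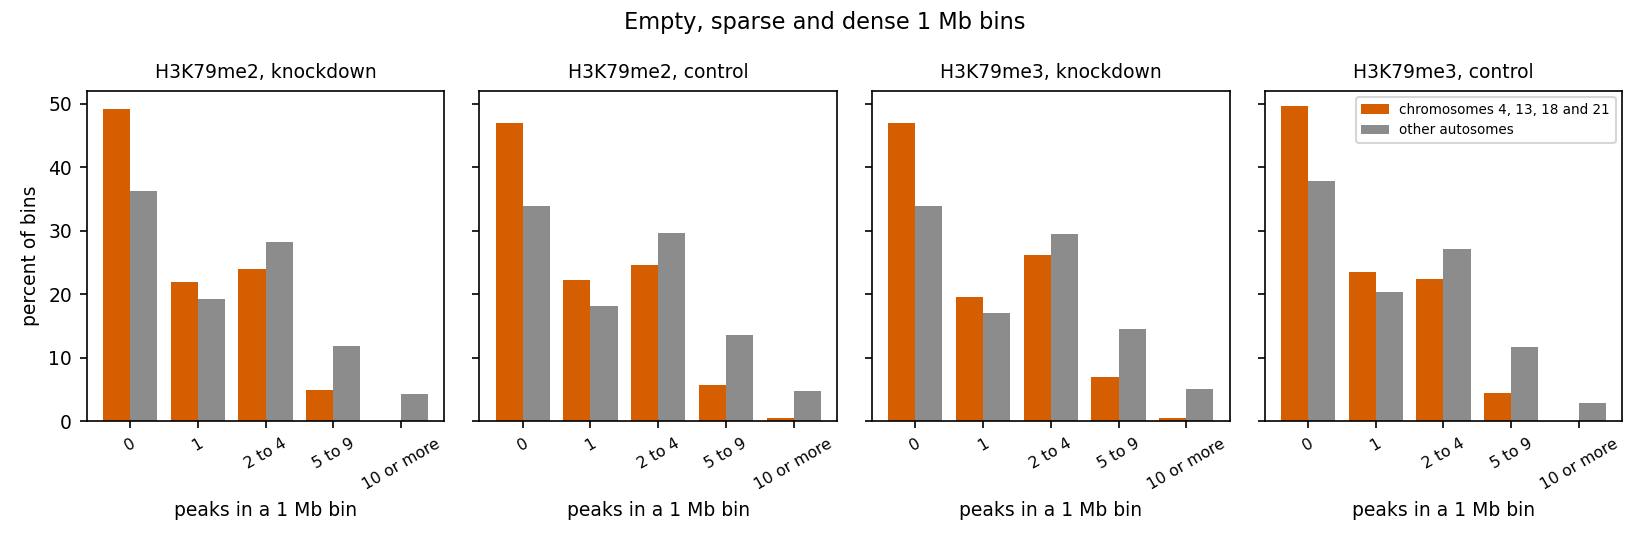
Percent of 1 Mb bins holding 0, 1, 2 to 4, 5 to 9, and 10 or more peaks on chromosomes 4, 13, 18 and 21 (405 bins) and on the other autosomes (2398 bins) in each ChIP list. Bins with 0 or 1 peak make up a larger share on the 4 chromosomes, and bins with 5 or more a smaller one, in all 4 lists.

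Taking both marks and both lines at once, 161 of the 405 bins (39.8%, interval 35.0 to 44.7) held no region, against 691 of 2398 (28.8%) on the other autosomes. By chromosome the share was 42.9% on chromosome 4, 38.5% on chromosome 21, 38.1% on chromosome 13 and 34.6% on chromosome 18. An input peak lay in 20 of the 161 empty bins. Of the bins of the 4 chromosomes, 22.5% lay in runs of 3 or more empty bins, called deserts here, against 12.7% elsewhere. There were 21 such deserts, of which 11 lay on chromosome 4, 5 on chromosome 18, 4 on chromosome 13 and 1 on chromosome 21. Stretches of hg19 without sequence were not taken out of the bins, so deserts and empty bins may include them.

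The longest desert ran over 11 bins, from 61 to 72 Mb of chromosome 13. The stretch without a region there was 11.5 Mb long, from position 60976708 to 72437726. It held 2 knockdown and 3 control input peaks, so that some sequence in it was mapped. In control H3K79me3 alone the empty run went on to 76 Mb, a run of 15 bins, while knockdown H3K79me3 ended it at 72 Mb. On chromosome 4 the longest stretch was 9.53 Mb, from position 57337738 to 66865103, with 2 knockdown and 0 control input peaks. On chromosome 18 it was 5.29 Mb, from 61089777 to 66379816, with no input peak in either line. On chromosome 21 it was 4.21 Mb, from 11186964 to 15399574, with 2 input peaks in each line. All of these lay in the last bin of the desert at 12 to 15 Mb, so they do not show that the rest of it was mapped. Deserts of 6 bins lay at 31 to 37 Mb of chromosome 4 and 54 to 60 Mb of chromosome 13.

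At the other end, the densest bins differed in their input. The bin with most regions on chromosome 4 was the one at 49 to 50 Mb, where 15 of 18 regions overlapped an input peak. Counting regions outside input peaks, the densest bin of chromosome 4 was 2 to 3 Mb with 13 regions. It held 8 knockdown and 9 control H3K79me2 peaks, and 9 knockdown and 8 control H3K79me3 peaks, with 0 knockdown and 2 control input peaks. On chromosome 21 the bin at 45 to 46 Mb held 12 regions, with 9 knockdown and 11 control H3K79me2 peaks, and 11 knockdown and 9 control H3K79me3 peaks. On chromosome 18 the bin at 12 to 13 Mb held 10 regions, and on chromosome 13 the bin at 41 to 42 Mb held 7. None of these last 3 bins held an input peak. The densest 41 of the 405 bins held 40.3% of the regions of the 4 chromosomes, and the densest 240 of the 2398 bins elsewhere held 39.3%. The variance of peaks per bin over its mean was lower on the 4 chromosomes. It was 2.09 and 2.59 in knockdown and control H3K79me2, against 4.62 and 4.66 elsewhere. For H3K79me3 it was 2.51 and 2.15, against 4.64 and 3.92. Both measures depend on the mean number per bin, so like shares do not show like clustering.

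**Figure D4:**
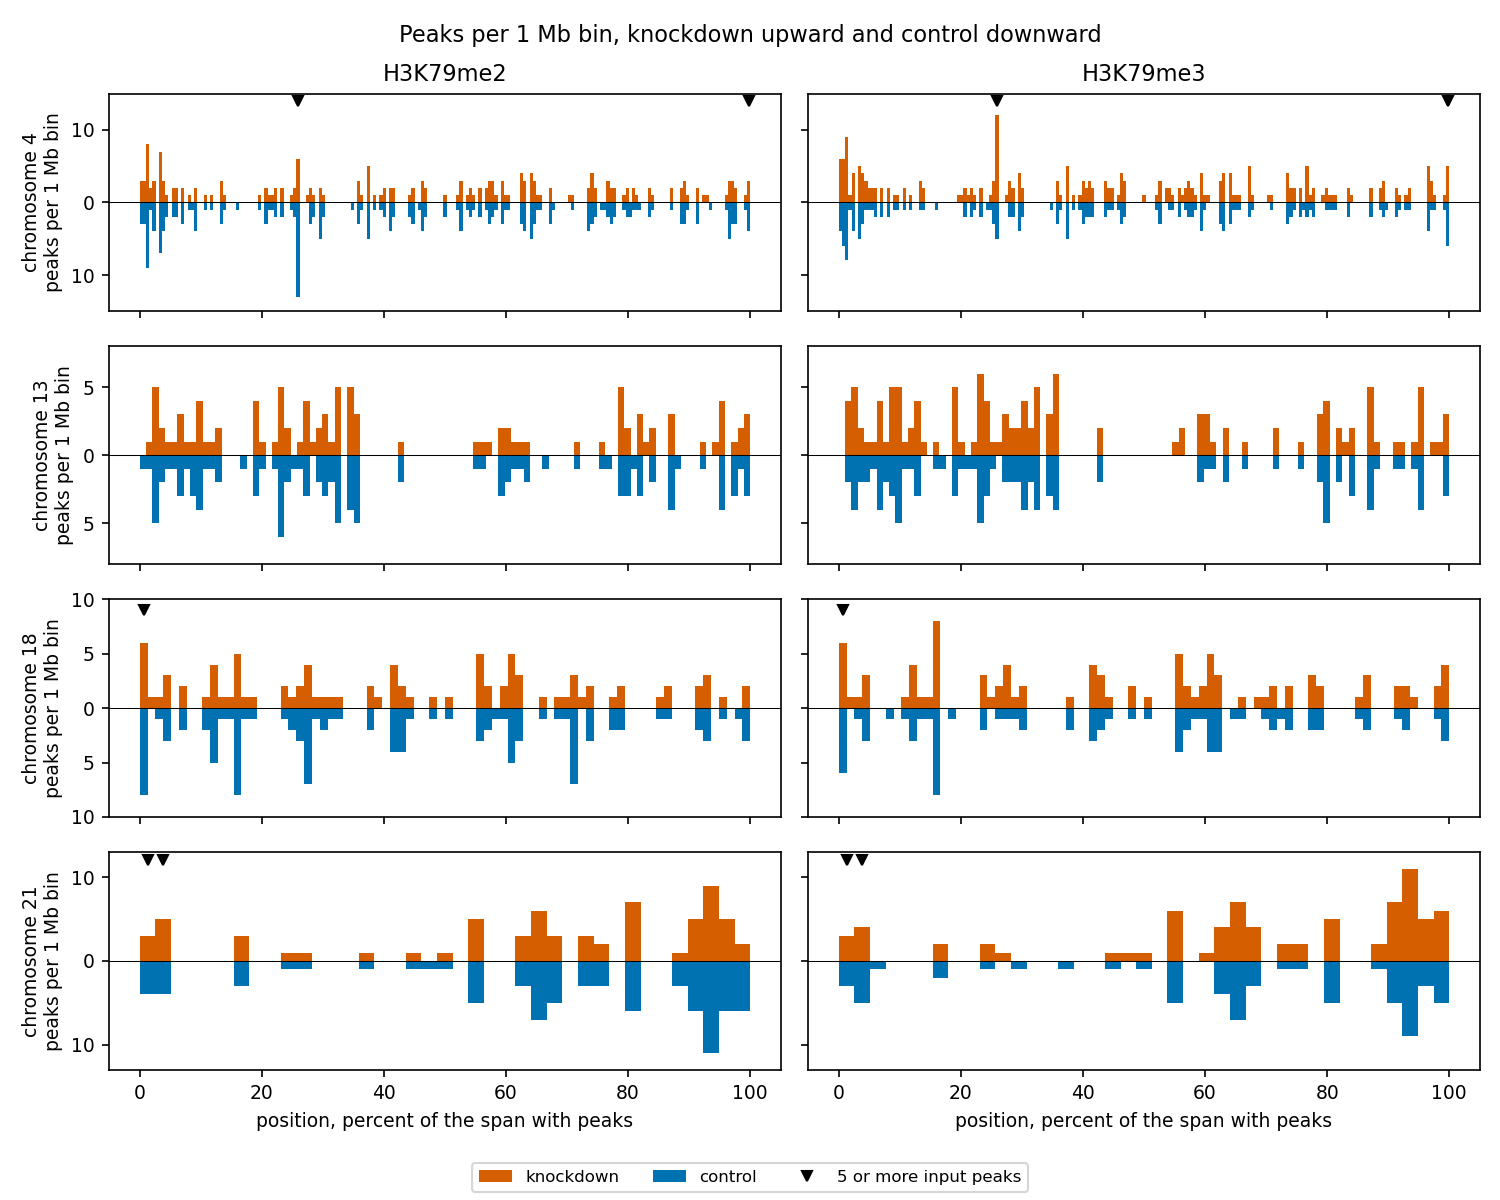
Peaks per 1 Mb bin along chromosomes 4, 13, 18 and 21 (position as percent of the span with peaks), with knockdown upward and control downward for each mark; triangles mark bins with 5 or more input peaks of both lines together. The tall bar of chromosome 4 with a triangle is the bin of 12 knockdown and 5 control H3K79me3 peaks, and the long blank of chromosome 13 is the desert of 11 bins.

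Regions stood alone more often. When regions no more than 100 kb apart were linked, 293 of the 694 on the 4 chromosomes had no neighbour (42.2%), against 26.0% of those on the other autosomes. Groups of 3 or more held 31.8% of the regions, against 53.9%. None of the 440 groups reached 10 regions, whereas 69 groups elsewhere did and the largest held 42. Chromosome 13 had the largest share of single regions (48.1%) and chromosome 21 the smallest (31.1%). The largest groups had 9 regions, both on chromosome 4. One ran over 429 kb from position 6640666. Its listed peaks summed to 252 knockdown and 339 control tags per 1000000 filtered tags (RPM) of H3K79me2, and 289 knockdown and 230 control RPM of H3K79me3. The same group held 1 knockdown and 0 control input peaks. The other, at 49093277 to 49157227, held 15 knockdown and 17 control input peaks. The median length of single regions was 3541 bp, against 3521 bp for regions in groups of 3 or more on the same chromosomes. Outside input peaks the order turned, with 3622.5 bp for single regions and 3784 bp for grouped ones. All 4 lists had a peak in 38.2% of the single regions (32.6 to 44.1) and in 43.0% of the grouped ones (36.4 to 49.8).

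The peaks of the 4 chromosomes had a larger median width than those elsewhere, beyond the interval in 3 of the 4 ChIP lists. Peak width depends on the fragment length that the caller estimated for each library, so widths were compared within a library. The median width was 3213 bp in knockdown H3K79me2, against 2993 bp on the other autosomes, and 2744 bp in control H3K79me2, against 2588 bp. It was 2657 bp in knockdown H3K79me3, against 2335 bp, and 2898 bp in control H3K79me3, against 2544 bp. The ratio was 1.07 (1.01 to 1.19) in knockdown and 1.06 (0.996 to 1.16) in control for H3K79me2, and 1.14 in both lines for H3K79me3 (1.07 to 1.22 in knockdown, 1.04 to 1.25 in control). In control H3K79me2 the interval includes 1, and chromosome 18 was narrower there, at 2512 bp, than the other autosomes. The intervals do not cover the spread between chromosomes. Among the other autosomes the widest medians for H3K79me2 were 3248 bp (chromosome 10) in knockdown and 2791 bp (chromosome 5) in control. For H3K79me3 they were 2728 bp (chromosome 3) in knockdown and 2907 bp (chromosome 10) in control. Chromosome 13 had the widest median of all 22 autosomes in knockdown H3K79me2 (3371 bp), knockdown H3K79me3 (3028.5 bp) and control H3K79me3 (3330 bp), and the second widest in control H3K79me2 (3151 bp), after chromosome 21 (3452 bp). Peaks over 5 kb made up 25.8% of knockdown and 21.9% of control H3K79me2 members, against 20.9% and 18.6% elsewhere. For H3K79me3 they made up 21.4% of knockdown and 23.01% of control members, against 16.6% and 18.6%.

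Tags per peak did not grow as width did. The median was 12.4 RPM in knockdown and 10.9 in control H3K79me2, against 11.8 and 11.1 on the other autosomes. It was 12.1 RPM in knockdown and 10.0 in control H3K79me3, against 11.1 and 9.56. Per kb of peak the members' pooled median was below that of the other autosomes in all 4 lists. It was 0.937 and 0.941 of it for H3K79me2 in knockdown and control, and 0.982 and 0.943 for H3K79me3. Chromosome 6 was lower still in both H3K79me2 lists and knockdown H3K79me3, and chromosome 7 in control H3K79me3. Chromosome 21 was above the other autosomes in both knockdown lists (3.84 against 3.69 for H3K79me2, 4.50 against 4.41 for H3K79me3). Chromosome 4 was above them in both H3K79me3 lists (4.45 in knockdown, and 3.45 against 3.41 in control). The members' pooled median of the authors' fold enrichment over the local background was also lower in all 4 lists. It was 0.925 and 0.912 of the median of the other autosomes for H3K79me2 in knockdown and control, and 0.910 and 0.908 for H3K79me3. The medians were 4.93 and 5.21 for H3K79me2, against 5.33 and 5.71, and 5.56 and 5.14 for H3K79me3, against 6.11 and 5.66. Chromosome 21 was above the other autosomes in control H3K79me3 (5.77). Chromosome 2 was below the members in knockdown H3K79me2 (4.87). Chromosome 18 had the lowest or second lowest median RPM per kb of the 22 autosomes in every list (ranks 1, 1, 2 and 1), while its widths ranked between 6 and 15. Tags were not corrected for the number of copies of each chromosome in 293T cells, which was not measured here.

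The regions with most tags in knockdown also had many in control. On chromosome 21 one region, at 44519929 to 44528571, led for both marks, with 102 knockdown and 134 control RPM of H3K79me2, and 126 knockdown and 114 control RPM of H3K79me3. On chromosome 13 it lay at 98628602 to 98636413, with 85.0 and 107 RPM of H3K79me2, and 103 and 91.7 of H3K79me3. On chromosome 18 it lay at 43670583 to 43678610, with 71.7 and 95.1 RPM of H3K79me2, and 99.1 and 83.8 of H3K79me3. In each of these 3 regions the knockdown was lower than the control for H3K79me2 and higher for H3K79me3. Choosing regions by knockdown RPM favours a higher knockdown value. On the other autosomes 93.3% of regions with an H3K79me3 peak in both lines were also higher in knockdown. On chromosome 4 the marks were led by different regions. For H3K79me2 it lay at 71698403 to 71705838, with 85.0 knockdown and 110 control RPM. For H3K79me3 it lay at 83813510 to 83821965, with 124 knockdown and 111 control RPM, and neither line listed an H3K79me2 peak there. None of these regions overlapped an input peak.

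Between the lines, the 2 marks differed in direction. The 4 chromosomes listed 450 H3K79me2 peaks in knockdown and 529 in control, a ratio of 0.851 (0.749 to 0.966), against 0.911 on the other autosomes. They listed 541 H3K79me3 peaks in knockdown and 439 in control, a ratio of 1.23 (1.08 to 1.4), against 1.26 elsewhere. Without the bin at 49 to 50 Mb of chromosome 4 the ratios were 0.860 for H3K79me2 and 1.22 for H3K79me3. With the same number of peaks taken by score from both whole lists of a mark, which sets the ratio over all chromosomes to 1, they were 0.943 for H3K79me2 and 0.989 for H3K79me3. Every one of the 4 chromosomes had fewer H3K79me2 peaks and more H3K79me3 peaks in knockdown. So did each of the other autosomes, with ratios from 0.856 to 0.966 for H3K79me2 and from 1.14 to 1.34 for H3K79me3. On the 4 chromosomes the values were as follows. The H3K79me2 ratio was 0.829 on chromosome 4, 0.911 on 13, 0.852 on 18 and 0.827 on 21, and the H3K79me3 ratio was 1.28, 1.22, 1.19 and 1.18 in the same order. The intervals of single chromosomes include 1 for 7 of these 8 ratios, the exception being H3K79me3 on chromosome 4 (1.05 to 1.55). Without the bin at 49 to 50 Mb the chromosome 4 ratios were 0.851 for H3K79me2 and 1.24 for H3K79me3, and no interval was computed for these. The knockdown H3K79me2 library was the shallower of its pair, with 13144744 filtered tags against 16018517 in control, and the H3K79me3 libraries had 16389356 in knockdown and 17044011 in control. The part of depth and of fragment length in the peak numbers was not tested.

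Peaks listed in one line only were about as common as in the whole lists. Of the knockdown H3K79me3 members, 140 of 541 (25.9%) had no overlapping control peak, where 27.2% of all knockdown H3K79me3 peaks did not. Of the control H3K79me3 members, 43 of 439 (9.79%) had no knockdown peak, where 8.7% of all did not. For H3K79me2, 51 of 450 knockdown members (11.3%) had no control peak, where 12.2% of all did not. Of the control H3K79me2 members, 122 of 529 (23.1%, interval 19.5 to 26.9) had no knockdown peak, where 19% of all did not. The last share stood beside 18.6% (17.7 to 19.6) on the other autosomes, and the 2 intervals overlapped by a narrow margin. Over the 4 chromosomes, peaks of one line only had fewer tags in each ChIP list. In H3K79me3 the 140 of the knockdown had a median of 3.45 RPM, against 17.3 for members shared with control, and the 43 of the control had 4.22, against 10.2. In H3K79me2 the 51 of the knockdown had 3.65, against 13.8, and the 122 of the control had 7.34, against 12.2. This did not hold on every chromosome: the 9 control-only H3K79me3 peaks of chromosome 18 had 24.7 RPM, against 7.98 for the shared ones, and the 18 control-only H3K79me2 peaks of chromosome 21 had 14.4, against 14.0.

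A larger share of the peaks of one line only fell in bins that the other line left empty. Of the 140 H3K79me3 members found in knockdown only, 27 (19.3%, interval 13.1 to 26.8) fell in a 1 Mb bin with no control H3K79me3 peak, against 10.4% (9.0 to 12.0) on the other autosomes. Over the higher-scoring 50% of each list the share on the 4 chromosomes was 40.5%. Shorter lists leave more bins empty, so this share rises by construction, and it was not computed for the other autosomes. Bins with no control H3K79me3 peak were also more common on the 4 chromosomes, at 49.6% against 37.9%. The share was 32.6% (19.1 to 48.5) of 43 control-only H3K79me3 members, against 7.78% (5.42 to 10.8), and 21.6% (11.3 to 35.3) of 51 knockdown-only H3K79me2 members, against 7.31% (5.46 to 9.55). Of 122 control-only H3K79me2 members it was 17.2% (10.98 to 25.1), against 10.9% (9.18 to 12.9), and these intervals overlap. By bins, 25 of 405 held H3K79me3 peaks of the knockdown alone and 14 of the control alone, and 98 held more peaks in knockdown while 22 held more in control. Bins of the knockdown alone and of the control alone made up 6.17% and 3.46%, beside 5.21% and 1.29% of the 2398 bins elsewhere, where 848 held more in knockdown and 162 more in control. For H3K79me2, 11 bins were occupied in the knockdown alone and 20 in the control alone, and 30 held more in knockdown while 80 held more in control. For this mark 2.72% of bins were occupied in the knockdown alone and 4.94% in the control alone, beside 1.88% and 4.30% elsewhere, where 278 held more in knockdown and 598 more in control.

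The bins that differed most between the lines included the input-rich one. Summed tags here are those of the listed peaks of a bin, so they change with the number of peaks listed. At 49 to 50 Mb of chromosome 4 the knockdown had 7 more H3K79me3 and 7 fewer H3K79me2 peaks than control. Summed tags there were 171 knockdown and 135 control RPM for H3K79me3, and 101 and 144 RPM for H3K79me2. The input tags in that bin were 555 RPM in knockdown and 498 in control, above all 4 ChIP libraries. In the other bins the knockdown had at most 3 more H3K79me3 peaks than control. These were 2 bins of chromosome 4, at 128 to 129 and 146 to 147 Mb, each with 5 knockdown and 2 control peaks, and the bin at 21 to 22 Mb of chromosome 18, with 4 knockdown and 1 control. The last of these went the other way for H3K79me2, with 4 knockdown and 7 control peaks. For H3K79me2 the next differences after the input-rich bin were 4 fewer peaks in knockdown. They were at 55 to 56 Mb of chromosome 18, with 3 knockdown and 7 control peaks but 40.7 and 38.8 RPM, and at 47 to 48 Mb of chromosome 21, with 2 knockdown and 6 control peaks and 59.3 and 146 RPM. The bin at 12 to 13 Mb of chromosome 18 had 5 knockdown and 8 control H3K79me2 peaks with 98.1 and 224 RPM, and 8 H3K79me3 peaks in each line with 258 knockdown and 153 control RPM.

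Regions with a peak in both lines allowed tags to be compared. On the 4 chromosomes 396 such regions had a median log2 ratio of H3K79me3 RPM, knockdown over control, of 0.56, against 0.61 in 4504 regions elsewhere, and 91.7% of them were above 0. Of the 396, 85 (21.5%) were higher in knockdown by 2-fold or more, where 22.7% of all such regions were, and 4 (1.01%) were lower by 2-fold or more, where 0.806% of all were. Per kb of peak the median log2 ratio was 0.51, against 0.55. By this measure 24 of the 396 (6.06%) were 2-fold or more higher, where 7.43% of all were, and 0 were 2-fold or more lower, where 0.0197% of all were. For H3K79me2 the median log2 ratio of RPM was -0.01 in 398 regions, against 0.00 elsewhere, and per kb it was -0.15 on both. By RPM, 29 of the 398 (7.29%) were higher by 2-fold or more, where 7.64% of all were, and 3 (0.754%) were lower, where 0.515% of all were. Per kb 0 regions passed 2-fold in either direction for H3K79me2, where 0.0552% of all were higher and 0.11% lower. The shares of the 4 chromosomes were thus close to those of the whole lists.

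Among the 4, chromosome 4 had the smallest shift in H3K79me3. Its median log2 ratio was 0.46, the lowest of the 22 autosomes, against 0.62 on chromosome 13, 0.68 on chromosome 18 and 0.58 on chromosome 21. Per kb it was 0.48, again the lowest of the 22, with 0.56 on chromosome 13, 0.54 on chromosome 18 and 0.59 on chromosome 21. Chromosome 5 was close to it, at 0.52 by RPM and 0.49 per kb, and these ranks carry no interval. By RPM, 22.7% of all shared regions were 2-fold or more higher in knockdown. The share was 16.8% of 167 regions on chromosome 4 and 27.0% of 100 on chromosome 13. It was 22.2% of 72 on chromosome 18 and 24.6% of 57 on chromosome 21. No such order was seen for H3K79me2, where the medians per kb lay between -0.17 on chromosome 13 and -0.12 on chromosome 21.

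**Figure D5:**
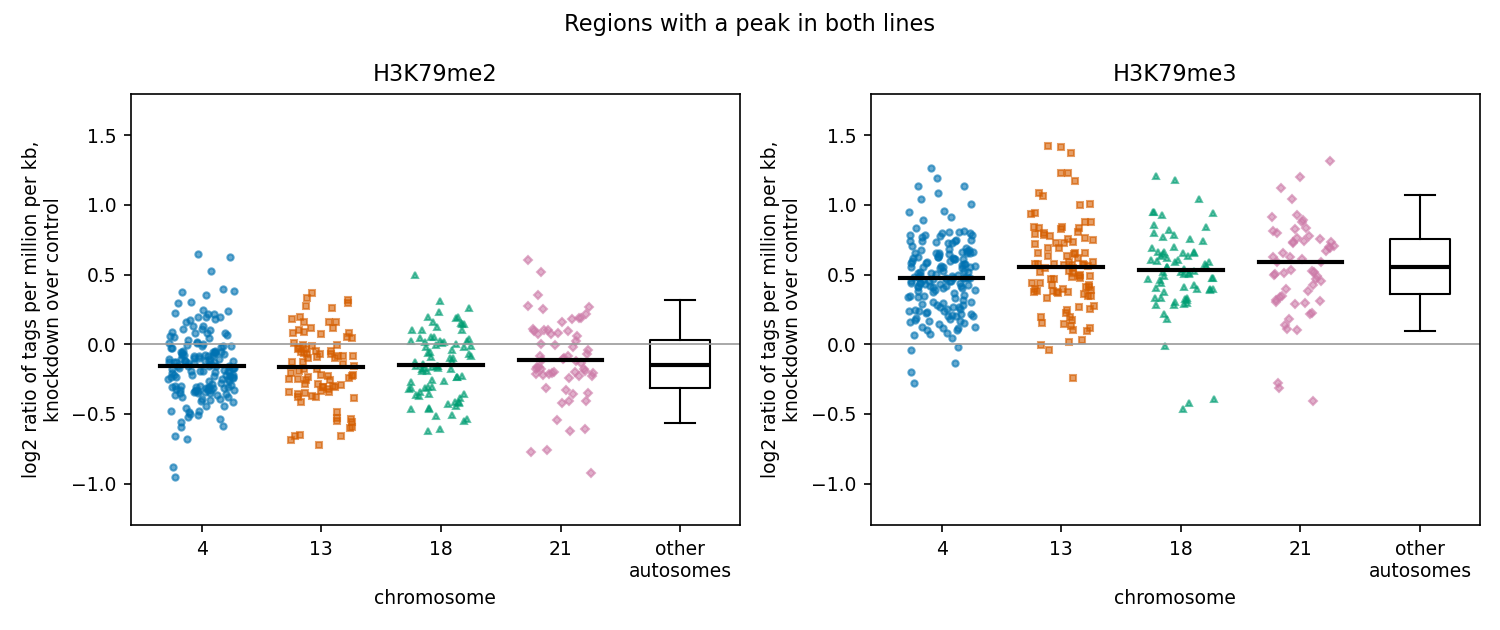
Log2 ratio of RPM per kb, knockdown over control, in regions with a peak in both lines on chromosomes 4, 13, 18 and 21 (points; black bars are medians), and the other autosomes (box with quartiles and 5th to 95th percentile). H3K79me3 points lie mostly above 0, with medians of 0.48 to 0.59, and H3K79me2 medians lie between -0.17 and -0.12.

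Single regions outside input peaks show what the highest and lowest ratios were made of. Each was the extreme among the candidate regions of its chromosome and mark, which numbered from 53 to 155. The highest H3K79me3 ratio per kb of the 4 chromosomes was at 80911222 to 80915157 of chromosome 13. Knockdown had 23.4 RPM (21.1 to 25.9) in a peak of 3936 bp, and control had 3.23 RPM (2.43 to 4.2) in a peak of 1443 bp. The log2 ratio was 2.86 by RPM and 1.41 per kb, so that part of the difference was a wider peak. The same place had the highest H3K79me2 ratio per kb of chromosome 13, with 27.8 knockdown and 13.1 control RPM and a log2 ratio of 0.37 per kb. On chromosome 21 the highest H3K79me3 ratio was at 34847127 to 34852005, with 24.9 knockdown and 3.75 control RPM. H3K79me2 there was 27.9 knockdown and 22.9 control RPM. On chromosome 18 it was at 61031589 to 61034623, with 12.1 knockdown and 3.40 control RPM, 55.2 kb before the longest stretch without a region of that chromosome. On chromosome 4 it was at 78978626 to 78980865, with 10.4 knockdown and 4.28 control RPM, and H3K79me2 there was 10.6 knockdown and 9.99 control RPM.

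The lowest H3K79me3 ratios per kb were small. They were -0.46 on log2 scale at 18510810 to 18512626 of chromosome 18, with 7.08 knockdown and 10.3 control RPM, and -0.32 at 45527057 to 45534036 of chromosome 21, where a knockdown peak of 6886 bp had 44.0 RPM and a control peak of 2665 bp had 21.2. On chromosome 13 the lowest was -0.24 at 83674899 to 83675926, with 1.28 knockdown and 2.41 control RPM from 21 and 41 tags. On chromosome 4 the lowest was -0.04 at 71554087 to 71558442, with 39.2 knockdown and 28.6 control RPM. For H3K79me2 the lowest were -0.96 at 11370700 to 11371565 of chromosome 4, with 1.98 knockdown and 2.37 control RPM, and -0.93 at 45936695 to 45939789 of chromosome 21, with 9.59 knockdown and 15.4 control RPM. The chromosome 4 region had only 26 knockdown and 38 control tags, with overlapping RPM intervals (1.29 to 2.90 and 1.68 to 3.26). Its log2 ratio by RPM was -0.26, and its peaks were 862 and 533 bp wide, so much of the ratio per kb was a difference in width. The highest for H3K79me2 were 0.63 at 8870371 to 8873603 of chromosome 4, with 11.3 knockdown and 3.06 control RPM, and 0.60 at 44842030 to 44847088 of chromosome 21, with 16.6 knockdown and 2.62 control RPM. At both of these places H3K79me3 peaks were listed in knockdown only, with 5.86 RPM on chromosome 4 and 5.37 RPM on chromosome 21. On chromosome 18 the highest H3K79me2 ratio was 0.49 at 21083459 to 21084566, with 3.35 knockdown and 1.69 control RPM from 44 and 27 tags. The lowest there was -0.62 at 47016034 to 47019181, with 17.4 knockdown and 24.9 control RPM. On chromosome 13 the lowest H3K79me2 ratio was -0.66 at 48807272 to 48813900. There the RPM went the other way, with 23.4 in a knockdown peak of 6629 bp and 8.43 in a control peak of 1511 bp.

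The marks met as often as elsewhere. In knockdown, 84.4% of H3K79me2 members overlapped an H3K79me3 peak, against 82.9% on the other autosomes, and in control 66.0% did, against 66.9%. Of the H3K79me3 members, 72.3% in knockdown and 78.8% in control overlapped an H3K79me2 peak, against 75.1% and 81.7%. All 4 lists had a peak in 289 of the 694 regions (41.6%), against 44.4% elsewhere. The next most frequent make-up was both H3K79me2 lists with knockdown H3K79me3, in 71 regions (10.2%, against 10.7%). After it came control H3K79me2 alone, in 60 regions (8.65%, against 6.12%), of which 32 lay on chromosome 4.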

How the data were processed

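The deposited peak lists of 6 libraries were used. The submitters' processing notes name Bowtie2 (version not given in the sources used here) and hg19 (GRCh37). Per the file headers, the authors called peaks in each library with MACS 1.4.2 without a control file, at a p cutoff of 1e-05, with at most 1 tag per position. Tag counts per peak were deposited as raw counts. Fold enrichment, a ratio within the library, was also deposited, and the deposited significance column was treated as a score (lowest value 50). The filtered tags per library ran from 11912494 to 17044011.

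The 4 chromosomes, and the lists and rules, were chosen with earlier results of these data known. Tags were divided by filtered tags (RPM). A span runs from the first to the last listed peak of a chromosome over the 6 lists, and a peak falls in the bin of its midpoint. Overlap is 1 shared bp. Intervals are exact Poisson (peaks per Mb), Clopper-Pearson (shares), conditional binomial (ratios of counts) and order statistics (medians). PCR reads without molecular identifiers are not independent molecules. On each chromosome the text names the bin with most regions, the longest gap, the region with most knockdown RPM per mark, and the highest and lowest ratio per kb among regions with 1 peak per line outside input peaks. In the ratios of regions with a peak in both lines, an unlisted peak was not taken as 0. Summed RPM of a bin or group counts listed peaks only, so an unlisted peak adds nothing to it. Functions were tested on simulated lists. The tools were scipy 1.17.1, numpy 2.4.6, pandas 2.3.3 and Python 3.11.15. Peaks on chromosome sequences outside the assembled chromosomes were left out.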

Additional observations from a re-analysis of the deposited data

Results flagged for a closer look

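The peak numbers of the 2 marks differed in direction between the lines on all 4 chromosomes, as they did on each of the other autosomes. Over the 4 chromosomes together, knockdown peak numbers differed from control by 23.2% for H3K79me3 and by -14.9% for H3K79me2. With 1 library per group this difference between the marks was not tested.

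Peaks on unplaced or haplotype sequences named for chromosome 4 were not used in any comparison. H3K79me3 had 32.6 RPM there in knockdown and 18.8 RPM in control, in 2 peaks each, against 8.73 RPM in knockdown and 15.7 RPM in control input, in 4 peaks each. H3K79me2 had 1.14 RPM in knockdown and 1.37 RPM in control, in 1 peak each.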

How the results depend on the processing

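Of 260 values under another setting, 233 stayed within the exact 95% interval of the value reported. Among them were all values without peaks on input peaks, with peaks within 1 kb joined, and without chromosome 13, 18 or 21. The density ratio of the 4 ChIP lists stayed between 0.420 and 0.579 under every setting run. Over the higher-scoring 50% of each list it was 0.420 and 0.452 for knockdown and control H3K79me2, 0.465 and 0.470 for knockdown and control H3K79me3, and 0.983 for control input. Without chromosome 4 it was 0.536 for knockdown H3K79me2 and 0.668 for knockdown input. Without the bin at 49 to 50 Mb, a setting added after seeing the data, it was 0.640 for knockdown and 0.561 for control input.

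Over the higher-scoring 50% the empty bins were 68.9% and 66.7% for knockdown and control H3K79me2, and 64.7% and 69.1% for knockdown and control H3K79me3. With 500 kb bins they were 66.4%, 64.1%, 63.8% and 67.5% in the same order. The median gaps over the higher-scoring 50% were 908 and 673 kb for H3K79me2, and 646 and 792 kb for H3K79me3. Fewer peaks and smaller bins make empty bins more frequent by construction. The median log2 ratio for H3K79me2 was -0.12 over the higher-scoring 50% and -0.15 per kb, and for H3K79me3 it was 0.42 over the higher-scoring 50%. Regions per gene were 0.873 of those of the other autosomes over the higher-scoring 50%, and the share of knockdown-only H3K79me3 peaks in bins with no control peak was 40.5%. With the same number of peaks taken by score from both lists, the H3K79me3 peak number of knockdown over control was 0.989; this setting fixes the ratio over all chromosomes at 1, so a value near 1 follows from its construction. Where no cause is named, the cause was not tested.

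No paired analysis was possible because each group has 1 library and the labels carry no replicate numbers. Weak peaks and peaks in unmapped sequence are not listed, so an empty bin shows only that no peak passed the caller's threshold at this depth.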
